A study of Mus musculus with 9 samples.

Results

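The 72 genes described here encode Rab GTPases and subunits of the adaptor protein (AP) complexes. They were chosen by symbol from the array annotation, as every gene named Rab with a number or Ap1 to Ap4 with a subunit letter. The array held 119 probes for them among 25697 probes and 18120 symbols. Of the 72 genes, 51 were Rabs with 77 probes and 21 were adaptor subunits with 42 probes. *Ap1m2*, *Rab25* and *Rab17* were picked out as the epithelial members with OV results of these arrays already known. Their OV values are therefore selected on the readout and are given without a test.

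RNA came from E10.5 CD-1 mouse embryos of no stated mutant genotype or treatment. The OV group held 3 pools of dissected otic vesicles. The periotic tissue group held 3 pools of the tissue around the vesicle, which included mesenchyme and hindbrain. The embryo-minus-otic group held 3 pools of whole embryos from which the greater otic region had been removed, so that it averaged many tissues. Each pool was measured on an Illumina MouseRef-8 v2.0 array of its own, and the comparisons asked which genes set the OV apart from the tissue next to it and from the rest of the embryo. Values are log2 intensities after quantile normalization, errors are SD over 3 arrays unless SE is named, and *q* is limma's p after Benjamini-Hochberg adjustment across all 25697 probes. A call means *q* under 0.05, and means of 3 arrays have limited precision. The study's methods name separate litters, but the labels do not tie a pool to a litter, and a *q* measures only the spread between these pools. In whole tissue, fewer cells of a type and less RNA per cell cannot be told apart. Detection at a p under 0.01 was reached by 11283 to 12160 probes per array.

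Rab GTPases are small G proteins that mark the membranes of the secretory and endocytic pathways. In the GTP-bound state they recruit effectors that move, tether and fuse vesicles, and exchange factors and GTPase-activating proteins switch them on and off. AP complexes select cargo for vesicles: AP-1 works at the trans-Golgi network and recycling endosomes, AP-2 at the plasma membrane, and AP-3 and AP-4 on routes toward lysosomes and other organelles. Polarized epithelia such as the otic epithelium add dedicated forms to this common set. *Ap1m2* encodes the medium subunit mu1B of the epithelial AP-1B complex, which sorts proteins to the basolateral surface, while *Ap1m1* encodes its widely expressed relative mu1A. *Rab25* is an epithelial relative of *Rab11a* and *Rab11b* in apical recycling, and *Rab17* acts in epithelial transcytosis.

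The upstream sequences of *Ap1m2*, *Rab25* and *Rab6b* are shown because these genes had the largest differences between OV and periotic tissue in either direction. Each is the 250 bases before the annotated start of transcription in the RefSeq promoter table for GRCm38.p6, printed 5′ to 3′ on the gene's strand. The stretches are chr9:21312334-21312583 on the minus strand for *Ap1m2*, chr3:88548280-88548529 on the minus strand for *Rab25*, and chr9:103111824-103112073 on the plus strand for *Rab6b*. Capitals mark matches on either strand to the E-box CACCTG, the sequence read by Snail and Zeb repressors, and to AACCNGTT, the core read by grainyhead-like factors.
Ap1m2: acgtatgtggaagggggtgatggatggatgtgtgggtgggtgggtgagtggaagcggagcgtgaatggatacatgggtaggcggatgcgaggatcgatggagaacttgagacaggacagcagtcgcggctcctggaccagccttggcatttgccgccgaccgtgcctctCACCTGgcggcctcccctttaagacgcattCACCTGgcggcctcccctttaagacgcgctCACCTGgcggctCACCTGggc
Rab25: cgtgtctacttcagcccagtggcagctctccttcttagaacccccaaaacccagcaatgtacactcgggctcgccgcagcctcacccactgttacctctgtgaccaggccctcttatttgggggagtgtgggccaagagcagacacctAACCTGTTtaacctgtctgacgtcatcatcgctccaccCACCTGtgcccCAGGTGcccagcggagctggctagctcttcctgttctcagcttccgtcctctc
Rab6b: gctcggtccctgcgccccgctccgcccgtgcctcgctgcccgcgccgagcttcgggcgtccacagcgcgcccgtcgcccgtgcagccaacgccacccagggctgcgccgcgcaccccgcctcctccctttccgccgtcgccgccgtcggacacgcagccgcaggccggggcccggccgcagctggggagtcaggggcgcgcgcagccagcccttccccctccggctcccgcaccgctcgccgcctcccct
The *Ap1m2* stretch held 4 CACCTG matches, at 81, 51, 21 and 9 bases before the start. Over all 32851 promoters in the table, 0.0426% held at least 4 in their upstream 250 bases, 2.06% held at least 2 and 17.2% held any. The *Rab25* stretch held 2, at 64 and 53 bases before the start, and an AACCNGTT match at 102 bases, a motif found in 1.79% of promoters. The *Rab6b* stretch held neither motif. It held the GC box GGGCGG, read by Sp factors, at 229 bases, a motif of 32.7% of promoters. Promoters were found for 62 of the 72 genes, 71 promoters in all. The array symbol *Rab1* matched both *Rab1a* and *Rnase4* as a synonym and was looked up under neither, so its promoter is left out. Among these 71, CACCTG was found in 14 (19.7%), AACCNGTT in 1 (1.41%) and the GC box in 44 (62.0%). The 3 motifs do not overlap one another in the stretches shown, and a match is a description of letters only.

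*Ap1m2* was brightest in OV on each of its 4 probes, which read the same transcripts on the same arrays and so are not independent of one another. The probe with the highest OV mean, ILMN_2925872, read 8.50, 8.37 and 8.42 in OV, 5.98, 5.98 and 6.29 on the periotic arrays and 6.66, 6.53 and 6.38 in embryo-minus-otic. No OV array overlapped with any non-otic array. The probe was above background on 1 of 3 periotic arrays and on 3 of 3 embryo-minus-otic arrays, and the OV mean was 5.07-fold the periotic and 3.74-fold the embryo-minus-otic mean. The other 3 probes had OV means of 8.26 ± 0.10, 8.14 ± 0.18 and 7.79 ± 0.06 and were not above background on any periotic array. Their OV levels were at least 4.21-fold, 3.88-fold and 3.05-fold those of periotic tissue. Against embryo-minus-otic, 2 of these 3 differed by 4.12-fold and 3.69-fold, and the dimmest, which no embryo-minus-otic array detected, by at least 2.98-fold.

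*Rab25* gave the same pattern on its single probe. It read 7.62, 7.56 and 7.85 in OV, 5.93, 5.95 and 5.89 on the periotic arrays and 6.38, 5.97 and 6.08 in embryo-minus-otic. Periotic tissue had no array above background and embryo-minus-otic had 1, so the OV level was at least 2.82-fold the periotic level and 2.90-fold the embryo-minus-otic mean. Leaving out any array kept the OV differences of *Ap1m2* between 1.78 and 2.42 and those of *Rab25* between 1.44 and 1.81 on the log2 scale. The deposited signals include array background. After background correction from the detection p-values (neqc), the *Ap1m2* differences were 3.02 to 3.53 against periotic tissue and 2.55 to 2.97 against embryo-minus-otic, and those of *Rab25* were 2.84 and 2.41. Because these genes were selected on the readout, the ranges describe their values and lend them no support.

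*Rab17* was not above background on any array with either probe. Its readings were 5.85, 6.01 and 5.94 in OV, 5.77, 5.67 and 5.94 on the periotic arrays and 5.73, 5.74 and 5.91 in embryo-minus-otic on 1 probe. The other probe read 5.77 to 5.97 in OV, 5.89 to 6.01 in periotic tissue and 5.63 to 5.87 in embryo-minus-otic. These are readings at the background level and give no order between the tissues.

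The non-otic groups were compared with a test for these genes. The OV results known at the choice were set against these same groups, so the test is not fully independent of the choice. *Ap1m2* was lower in periotic tissue than in embryo-minus-otic on 1 of 4 probes, by 0.44 ± 0.10 (SE) on the log2 scale (*q* = 0.0197). That call was lost without periotic replicate 1, periotic replicate 2 or embryo-minus-otic replicate 1, with differences of -0.39 to -0.38 and *q* of 0.0850 to 0.106, and with median or without normalization. With neqc the difference was -0.86. The other probes differed by -0.31 (*q* = 0.196), -0.29 (*q* = 0.161) and -0.04 (*q* = 0.901). *Rab25* differed by -0.22 (*q* = 0.362).

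The widely expressed relatives were not called higher in OV. *Ap1m1* read 9.09, 9.19 and 9.14 in OV, 10.04, 10.42 and 9.93 on the periotic arrays and 9.77, 9.87 and 9.93 in embryo-minus-otic. Every OV array was below every non-otic array. The OV level was lower by 0.99 ± 0.11 (SE) than periotic tissue (*q* = 1.37e-05) and by 0.72 ± 0.11 than embryo-minus-otic (*q* = 3.53e-04), a call lost with median normalization. The non-otic groups differed by 0.27 ± 0.11 (*q* = 0.225). The OV differences of *Ap1m2* and *Ap1m1* had opposite signs. The gap between them was 3.18 against periotic tissue and 2.64 against embryo-minus-otic, averaged over the *Ap1m2* probes. It rests on *Ap1m2* values that were selected on the readout, so nothing is read from its size.

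*Rab11a* and *Rab11b*, Rabs of the recycling endosome, had no call in any comparison. *Rab11a* read 7.70, 7.83 and 7.67 in OV, 7.96, 7.95 and 7.86 on the periotic arrays and 7.59, 7.87 and 7.82 in embryo-minus-otic. Its OV differences were -0.18 ± 0.09 (SE; *q* = 0.319) and -0.03 ± 0.09 (*q* = 0.932). *Rab11b* lay between 12.19 and 12.35 in OV, 12.47 and 12.75 on the periotic arrays and 12.41 and 12.53 in embryo-minus-otic, with differences of -0.30 ± 0.09 (*q* = 0.0641) and -0.19 ± 0.09 (*q* = 0.284). The change of *Rab25* exceeded that of *Rab11a* by 1.94 against periotic tissue and by 1.56 against embryo-minus-otic. These gaps rest on *Rab25* values that were selected on the readout.

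**Figure D1:**
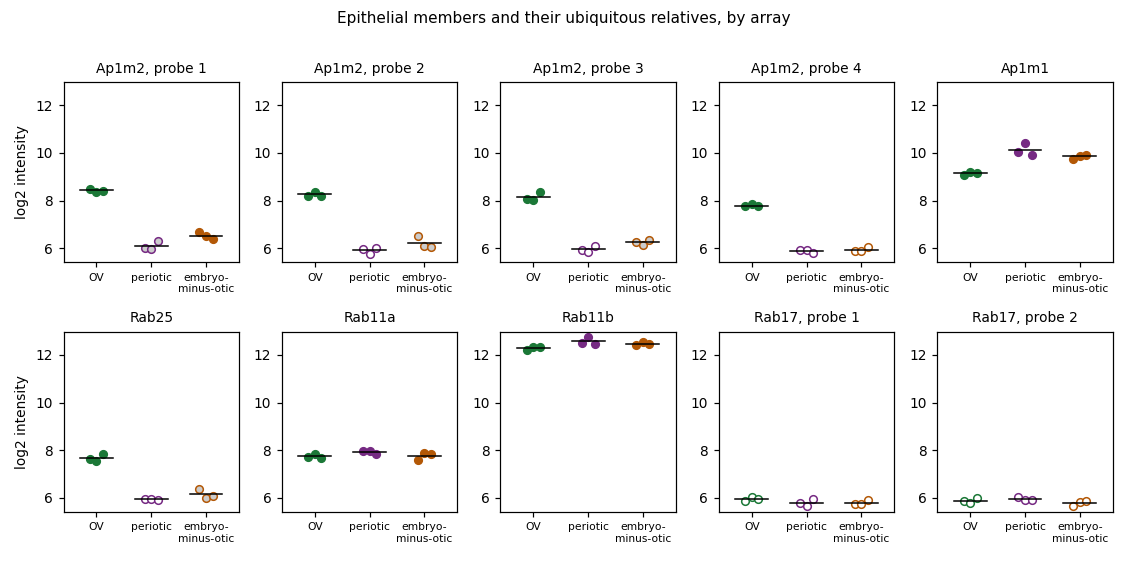
Log2 normalized intensity on each of the 9 arrays by tissue group for the probes of Ap1m2, Ap1m1, Rab25, Rab11a, Rab11b and Rab17, with a line at each group mean; filled points mark groups with all 3 arrays above background, grey points some and open points none, and levels are not comparable between panels. The OV points of Ap1m2 and Rab25 lie above all non-otic points, those of Ap1m1 lie below them, and Rab17 is at background throughout.

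Epithelial markers moved with *Ap1m2* and *Rab25*. Of 26 probes for 16 marker genes such as *Cdh1*, *Cldn6* and *Rbm35a*, 17 were called higher in OV against both other tissues, beside 3.51% of all probes. *Cldn6* and *Rbm35a* are among the paper's top-ranked OV probes on these arrays, so the count is partly fixed by earlier results. Their summed intensity was 14070 to 15080 on the OV arrays, 1987 to 2294 on the periotic arrays and 2893 to 3509 on the embryo-minus-otic arrays. *Cdh1* and *Cldn6*, defining markers of the list, were above background on every array of all groups. Of 15 probes for otic vesicle genes such as *Oc90* and *Lmx1a*, 9 were higher in OV than in both, beside the same 3.51%. *Oc90* and *Lmx1a* also lead the paper's OV ranking of these arrays, so nothing is read from this count. The part of epithelial content in the levels of *Ap1m2* and *Rab25* was not tested.

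Across all 119 probes, OV had 8 calls higher than periotic tissue, beside 5.07% of all probes on the array, and 15 lower, beside 5.15%. Against embryo-minus-otic 8 were higher, beside 5.89%, and 16 lower, beside 5.51%. Of the 8 higher calls in each comparison, 5 belong to *Ap1m2* and *Rab25*. The 112 probes of the other 69 genes had 3 higher calls (2.68%) and 15 lower calls (13.4%) against periotic tissue, and 3 (2.68%) and 16 (14.3%) against embryo-minus-otic. Their median difference was -0.12 and -0.03, beside medians within 0.01 of 0 over all probes. With median normalization the split of all member calls against embryo-minus-otic was 5 higher and 4 lower. Of 48 tested member calls over the 3 comparisons, 35 were lost with median normalization, without normalization or with both. The 13 that held under these and all other alternatives run were those of *Rab6b* in all comparisons, *Rab32* in both OV comparisons, *Ap3m2* in both comparisons that called it, *Ap1m1*, *Rab3a*, *Rab3d* and *Rab39* against periotic tissue, *Rab38* against embryo-minus-otic on its brighter probe, and *Rab33a* between the non-otic groups.

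Member probes were detected more often than the array as a whole, which bears on these shares. Above background on no array were 20.2% of member probes and 45.9% of all probes. By gene, 51 of the 72 had a probe above background on all 9 arrays, and 11 had none on any array: *Ap1g2*, *Ap1s2*, *Rab2b*, *Rab3b*, *Rab3c*, *Rab9b*, *Rab17*, *Rab20*, *Rab27b*, *Rab37* and *Rab40b*. No call was made in any comparison for 85 probes, and 47 genes had no called probe. The differences of those 85 ranged from -0.41 to 0.22 against periotic tissue and from -0.45 to 0.34 against embryo-minus-otic.

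**Figure D2:**
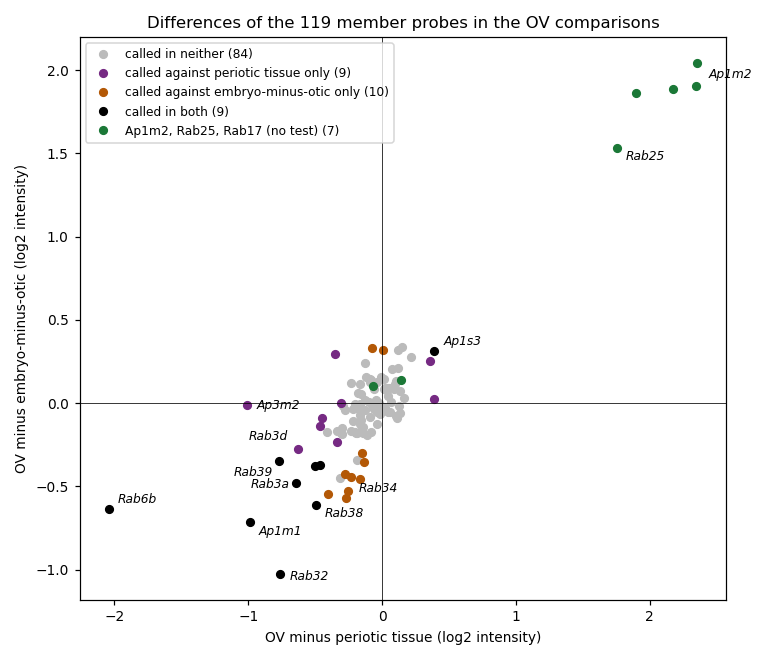
Each point is 1 of the 119 member probes, placed by its OV minus periotic (horizontal) and OV minus embryo-minus-otic (vertical) difference in log2 intensity, and coloured by which comparison called it. The Ap1m2 and Rab25 probes, given without a test, stand alone at the upper right; of the other genes' probes, leaving out Rab17 too, 9 were called in both comparisons and 84 in neither.

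In both OV comparisons together, 6 probes of 3 genes were higher, beside 3.51% of all probes, but 5 of the 6 were *Ap1m2* and *Rab25* probes selected on the readout, from which nothing is read. Of the 112 other probes 1 was called higher in both. In the other direction, 8 probes of 8 genes were called lower, beside 2.65%. The gene called higher was *Ap1s3*, a small sigma subunit of AP-1. The 8 lower genes were *Ap1m1*, *Ap2m1*, *Rab3a*, *Rab6b*, *Rab28*, *Rab32*, *Rab38* and *Rab39*. Without OV replicate 1, OV replicate 3 or embryo-minus-otic replicate 2 the number called lower in both was 4, and without embryo-minus-otic replicate 3 it was 5.

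Within AP-1, *Ap1m1* and *Ap1m2* carried the largest differences. The AP-1 list had 18 probes for 8 genes, of which 4 were the *Ap1m2* probes selected on the readout. Leaving these aside, *Ap1s3* alone was called higher in each OV comparison, on 1 probe, while 1 probe was lower than in periotic tissue and 3 were lower than in embryo-minus-otic. *Ap1s3* read 6.37, 6.49 and 6.32 in OV, 5.84, 6.01 and 6.17 on the periotic arrays and 6.11, 6.08 and 6.07 in embryo-minus-otic on 1 of its 3 probes. The OV arrays were above all others, by 0.39 ± 0.10 (SE) against periotic tissue (*q* = 0.0139) and at least 1.13-fold against embryo-minus-otic (*q* = 0.0479), where no array detected it. The first call was lost without OV replicate 2 (0.34) or periotic replicate 1 (0.31), the second without any of the OV or embryo-minus-otic arrays or periotic replicate 2, with differences of 0.26 to 0.35. The second was also lost with the replicate number as a block, and both with median or without normalization. With neqc the differences were 0.77 and 0.64. The other 2 *Ap1s3* probes, with OV differences of -0.09 to 0.14, were not called.

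*Ap1s1*, the widely expressed sigma subunit of AP-1, was lower in OV than in embryo-minus-otic on 2 of 3 probes, by 0.35 ± 0.10 (SE; *q* = 0.0259) and 0.30 ± 0.09 (*q* = 0.0438). Each call was lost when any of several single arrays was left out, with differences of -0.36 to -0.29 on the first probe (OV replicate 2 or 3, embryo-minus-otic replicate 1 or 2) and -0.33 to -0.25 on the second (any OV array, periotic replicate 1 or 2, embryo-minus-otic replicate 1 or 3). The large subunits *Ap1b1* and *Ap1g1*, which bind cargo and clathrin, had no call in any comparison.

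AP-2, the endocytic adaptor, had 1 called probe of 12, that of its medium subunit *Ap2m1*. It read 8.80, 8.86 and 8.82 in OV, 9.15, 9.31 and 9.54 on the periotic arrays and 9.20, 9.26 and 9.15 in embryo-minus-otic. All OV arrays were below all others, by 0.50 ± 0.10 (SE; *q* = 0.00262) and 0.38 ± 0.10 (*q* = 0.0209). The call against embryo-minus-otic was lost without any OV array or embryo-minus-otic replicate 1 or 2 (-0.39 to -0.35, *q* of 0.0501 to 0.0707), and both were lost with median normalization. The 11 other AP-2 probes, for *Ap2a1*, *Ap2a2*, *Ap2b1* and *Ap2s1*, were not called in any comparison.

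AP-3 differed mainly through *Ap3m2*, the medium subunit of the neuronal form of the complex. It read 6.68, 6.78 and 6.64 in OV, 7.66, 7.83 and 7.63 on the periotic arrays and 6.77, 6.59 and 6.76 in embryo-minus-otic. Periotic tissue stood above both other groups, which overlapped. OV was lower than periotic tissue by 1.01 ± 0.09 (SE; *q* = 1.17e-06), periotic tissue was higher than embryo-minus-otic by 1.00 ± 0.09 (*q* = 3.67e-06), and OV differed from embryo-minus-otic by -0.01 ± 0.09 (*q* = 0.979). The first 2 calls held under all alternatives run. Its widely expressed relative *Ap3m1* had no call, and the change of *Ap3m2* minus that of *Ap3m1* was -0.88 for OV against periotic tissue. *Ap3b2*, the beta subunit of the neuronal form, had no call and did not share the periotic rise. It read 6.26, 7.57 and 6.33 in OV. OV minus periotic tissue was -0.20 ± 0.26 (SE; *q* = 0.793), and periotic tissue minus embryo-minus-otic was 0.03 ± 0.26 (*q* = 0.977).

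*Ap3b1*, the widely expressed beta subunit of AP-3, was higher in OV than in embryo-minus-otic on both probes, by 0.33 ± 0.09 (SE; *q* = 0.0250) and 0.32 ± 0.10 (*q* = 0.0498). Leaving out single arrays ended the first call for 4 arrays (OV replicate 2 or 3, embryo-minus-otic replicate 1 or 2; 0.27 to 0.35) and the second for 7 arrays, all but OV replicate 1 and periotic replicate 3 (0.24 to 0.35). The first probe was also higher in periotic tissue than in embryo-minus-otic, by 0.41 ± 0.09 (*q* = 0.0118; 0.35 and *q* = 0.0573 without periotic replicate 3). AP-4, which exports cargo from the Golgi, had 1 call among 4 probes: *Ap4m1* was lower in OV than in periotic tissue on 1 of 3 probes by 0.34 ± 0.09 (*q* = 0.0303), a call lost without OV replicate 2 or 3 or periotic replicate 1 or 2 (-0.32 to -0.29).

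**Figure D3:**
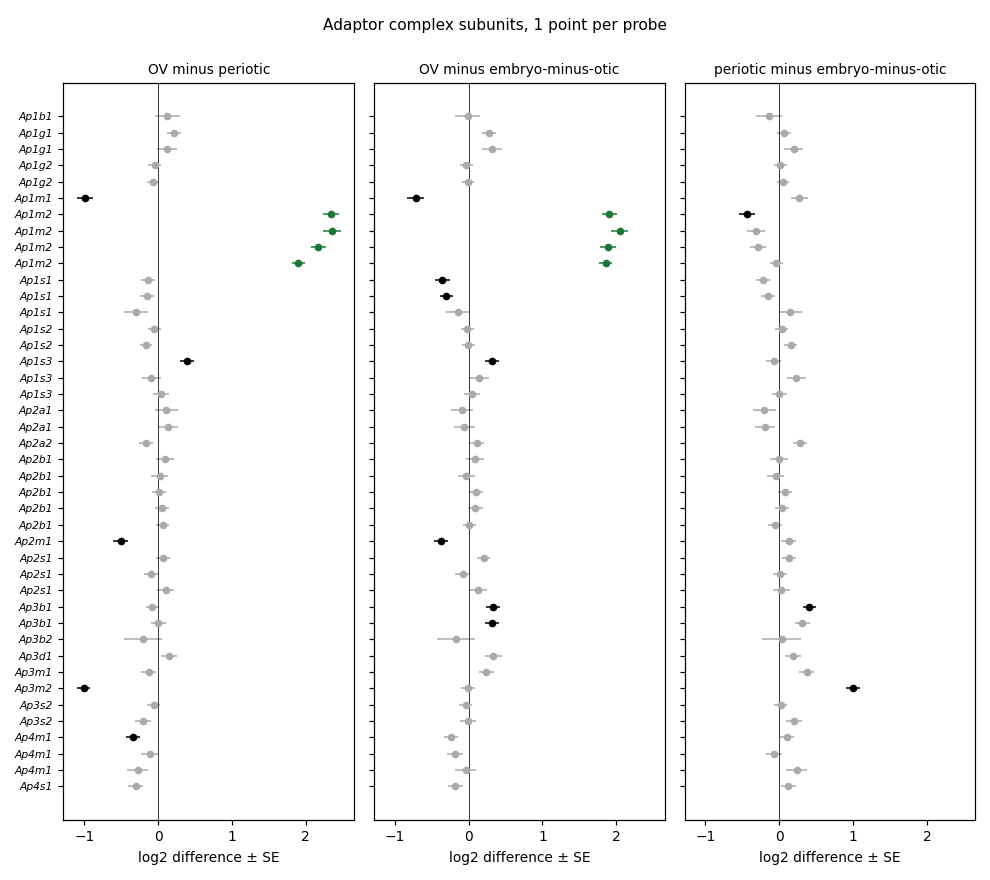
Log2 differences with SE from limma for the 42 adaptor probes in the 3 comparisons, 1 row per probe and 9 arrays in the fit. Black points have a q under 0.05, grey points do not, and green points are the Ap1m2 probes in the OV comparisons, given without a test; Ap1m1 and Ap3m2 are the lowest points against periotic tissue, at -0.99 and -1.01.

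Calls among the neuron-enriched members ran 1 way in each comparison. Of 9 probes for 9 genes, 4 were lower and 0 higher in OV than in periotic tissue by limma (5 lower and 0 higher at an unadjusted p under 0.05). Against embryo-minus-otic 2 were lower in OV by limma (2 lower and 1 higher, *Rab33a*, at an unadjusted p under 0.05). Over all probes, 5.15% and 5.51% were lower in these OV comparisons. Between the non-otic groups, where 2.86% of all probes were higher and 2.95% lower in periotic tissue, 4 of the 9 were higher. *Rab3b* and *Rab3c*, which act on synaptic vesicles, were not above background on any array.

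*Rab6b*, the neuronal form of the Golgi Rab *Rab6*, had the largest difference of any member outside the epithelial group. It read 6.15, 6.20 and 6.40 in OV, 8.20, 8.41 and 8.27 on the periotic arrays and 6.75, 7.01 and 6.91 in embryo-minus-otic. The 3 groups did not overlap, and 2 of 3 OV arrays were above background. OV was 4.11-fold lower than periotic tissue (log2 difference -2.04 ± 0.10 SE; *q* = 1.06e-09) and 1.55-fold lower than embryo-minus-otic (-0.64 ± 0.10; *q* = 3.91e-04). Periotic tissue was 2.65-fold higher than embryo-minus-otic (1.40 ± 0.10; *q* = 2.31e-07). All 3 calls held under all alternatives run, and with neqc the OV difference from embryo-minus-otic was -1.11. *Rab6*, expressed in most cells, had no call.

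*Rab33a*, a Golgi Rab of the nervous system and lymphoid cells, read 7.13, 6.97 and 6.87 in OV, 7.40, 7.42 and 7.21 on the periotic arrays and 6.79, 6.72 and 6.57 in embryo-minus-otic. Periotic tissue was above both others. It exceeded embryo-minus-otic by 0.64 ± 0.10 (SE; *q* = 6.07e-04) under all alternatives run. OV was lower than periotic tissue by 0.35 ± 0.10 (*q* = 0.0335), a call lost without OV replicate 2 or 3 or periotic replicate 1 or 2 (-0.34 to -0.29). *Rab15*, which acts in endocytic recycling in neural cells, was higher in periotic tissue than in embryo-minus-otic by 0.35 ± 0.09 (*q* = 0.0353), lost without any of 6 arrays (OV replicate 1 or 2, periotic replicate 2 or 3, embryo-minus-otic replicate 1 or 3; 0.27 to 0.36).

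Neuronal markers moved in the same direction as *Rab6b*, *Rab33a* and *Rab15* against periotic tissue and between the non-otic groups. The OV difference of *Rab15* from periotic tissue, -0.23 ± 0.09 (SE; limma *q* = 0.166), was not called. Against embryo-minus-otic *Rab6b* and *Rab3a* were called lower in OV, as the markers were. The OV differences of *Rab33a* and *Rab15* there were 0.29 ± 0.10 (SE; *q* = 0.0749) and 0.12 ± 0.09 (*q* = 0.537), neither called. Of 17 probes for 13 marker genes, 11 were lower in OV than in periotic tissue, 7 were lower than in embryo-minus-otic, and 8 were higher in periotic tissue than in embryo-minus-otic. Their summed intensity was 2046 to 2780 in OV, 4779 to 6342 in periotic tissue and 3580 to 4085 in embryo-minus-otic. Among defining markers, *Tubb3*, *Snap25* and *Nefl* were not above background on any array. The part of neuronal content in the levels of *Rab6b*, *Ap3m2*, *Rab33a* and *Rab3a* was not tested.

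Members of regulated secretion and lysosome-related organelles made up the next group. It shares *Rab3a*, *Rab3b* and *Rab3c* with the neuron-enriched members, so the calls of *Rab3a* count in both. No array detected 6 of its 12 probes. Of 12 probes for 9 genes, 1 (8.33%) was higher and 4 (33.3%) lower in OV than in periotic tissue, beside 5.07% and 5.15% of all probes. Against embryo-minus-otic 0 were higher and 4 (33.3%) lower by limma (0 and 5 at an unadjusted p under 0.05), beside 5.89% and 5.51%. *Rab32*, which with *Rab38* directs cargo to melanosomes and related organelles, read 6.55, 6.56 and 6.32 in OV, 7.18, 7.22 and 7.32 on the periotic arrays and 7.55, 7.32 and 7.64 in embryo-minus-otic. Every OV array was below every other array. The OV level was lower by 0.76 ± 0.10 (SE; *q* = 7.97e-05) than periotic tissue and by 1.03 ± 0.10 (*q* = 3.76e-06) than embryo-minus-otic, and both calls held under all alternatives run.

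*Rab38* read 6.36, 6.31 and 6.18 in OV, 6.87, 6.64 and 6.82 on the periotic arrays and 6.85, 6.87 and 6.96 in embryo-minus-otic on its brighter probe. OV was below both other groups without overlap, by 0.49 ± 0.09 (SE; *q* = 0.00152) and 0.61 ± 0.09 (*q* = 2.24e-04). With neqc these differences were -0.87 and -1.05. On the second probe no OV array was above background, and embryo-minus-otic was at least 1.08-fold higher (*q* = 0.00701). The call against periotic tissue and that of the second probe were lost without normalization between arrays.

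*Rab3a*, a Rab of synaptic and secretory vesicles, read 6.31, 6.35 and 6.26 in OV, 6.71, 7.17 and 6.97 on the periotic arrays and 6.52, 7.05 and 6.80 in embryo-minus-otic. OV was lower than periotic tissue by 0.64 ± 0.13 (SE; *q* = 0.00371) and lower than embryo-minus-otic by 0.48 ± 0.13 (*q* = 0.0250). The second call was lost without any OV array or embryo-minus-otic replicate 2 or 3 (-0.50 to -0.35). With neqc the differences were -1.07 and -0.83.

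*Rab3d*, found on secretory granules of exocrine cells, read 6.32, 6.21 and 5.99 in OV, 6.89, 6.81 and 6.71 on the periotic arrays and 6.52, 6.38 and 6.45 in embryo-minus-otic. It was lower in OV than in periotic tissue by 0.63 ± 0.10 (SE; *q* = 3.27e-04), or 1.14 with neqc. Periotic tissue was higher than embryo-minus-otic by 0.35 ± 0.10 (*q* = 0.0482), lost without any of 7 arrays, all but OV replicates 1 and 3, and with neqc. *Rab27a*, which docks lysosome-related organelles and exosome-forming endosomes, went the other way. It read 6.88 to 6.95 in OV, 6.37 to 6.68 in periotic tissue and 6.87 to 6.93 in embryo-minus-otic, so that periotic tissue was below OV by 0.39 ± 0.09 (*q* = 0.00952; 0.31 and *q* = 0.0618 without periotic replicate 2). Periotic tissue was below embryo-minus-otic by 0.36 ± 0.09 (*q* = 0.0261), lost without periotic replicate 1 or 2 or embryo-minus-otic replicate 1 or 3 (-0.38 to -0.28). Both calls were lost with median or without normalization, and with neqc the differences were 0.63 and -0.59.

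**Figure D4:**
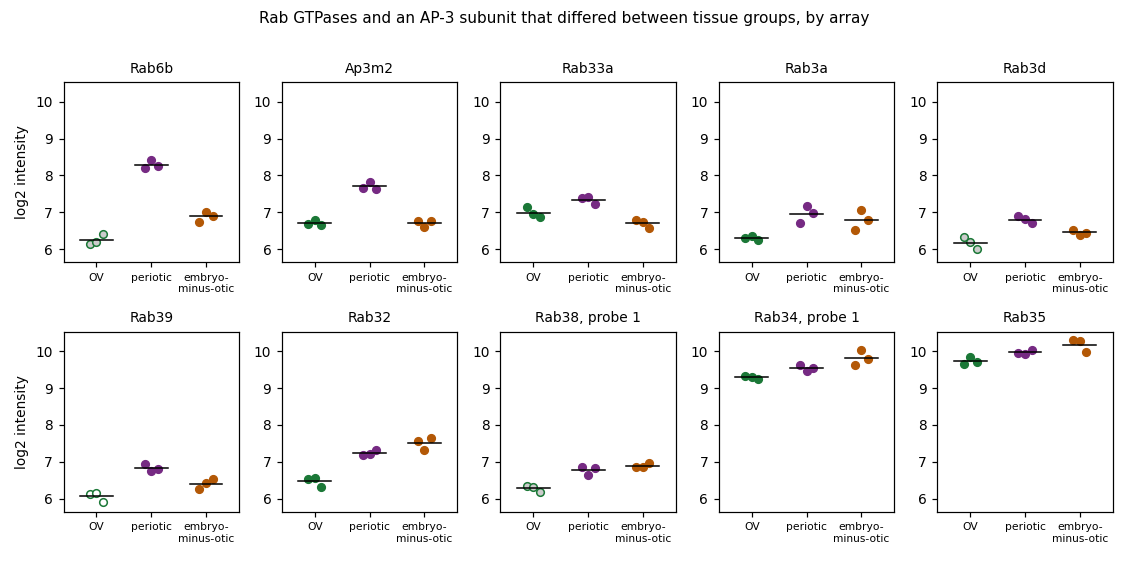
Log2 normalized intensity on each of the 9 arrays by tissue group for 9 Rabs and Ap3m2, with a line at each group mean; for Rab34 and Rab38 the brightest probe is shown. Filled points mark groups with all 3 arrays above background, grey points some and open points none, and levels are not comparable between panels. Rab6b falls into 3 separate groups of points, Ap3m2 is high in periotic tissue alone, and Rab32 and Rab38 are low in OV alone.

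Among ER and Golgi Rabs, *Rab39* followed the order of *Rab6b*. It read 6.12, 6.17 and 5.90 in OV, where no array was above background, 6.95, 6.74 and 6.81 in periotic tissue and 6.27, 6.43 and 6.53 in embryo-minus-otic. Periotic tissue was at least 1.55-fold higher than OV (*q* = 6.78e-05), and embryo-minus-otic at least 1.16-fold higher (*q* = 0.0378; lost without OV replicate 1 or 3 or embryo-minus-otic replicate 2 or 3). Periotic tissue exceeded embryo-minus-otic by 0.42 ± 0.10 (SE; *q* = 0.0215), lost without periotic replicate 1 or embryo-minus-otic replicate 1 (0.36 for each). With neqc OV minus periotic tissue was -1.41, OV minus embryo-minus-otic -0.69, and periotic tissue minus embryo-minus-otic 0.71. *Rab19*, a Golgi Rab, was above background on 1 OV array only and exceeded periotic tissue at least 1.01-fold there (*q* = 0.0137; lost without OV replicate 1 or periotic replicate 3). *Rab1*, *Rab1b*, *Rab2* and *Rab18*, which serve transport between ER and Golgi and lipid droplets in most cells, had no call.

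Of 15 probes for late endosome and lysosome Rabs, 1, of *Rab7*, was lower in OV than in periotic tissue. Against embryo-minus-otic 4 were lower, 3 of them from *Rab34* and 1 from *Rab12*. These were 6.67% and 26.7% of the probes, beside 5.15% and 5.51% of all probes. The counts lower at an unadjusted p under 0.05 were 6 and 4, and the median differences were -0.17 and -0.14. *Rab34*, which positions lysosomes and acts in ciliogenesis, was lower on all 3 of its probes, by 0.53 ± 0.10 (SE; *q* = 0.00239), 0.57 ± 0.12 (*q* = 0.00392) and 0.46 ± 0.13 (*q* = 0.0360). Its brightest probe read 9.33, 9.31 and 9.25 in OV, 9.62, 9.46 and 9.55 on the periotic arrays and 9.63, 10.04 and 9.79 in embryo-minus-otic, with OV below both other groups. All 3 calls were lost with median normalization, and the third also without any OV array or embryo-minus-otic replicate 1 or 3 (-0.51 to -0.36).

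*Rab12*, which directs recycling cargo to lysosomes, was lower in OV than in embryo-minus-otic by 0.55 ± 0.15 (SE; *q* = 0.0296), lost without OV replicate 1 or 3 or embryo-minus-otic replicate 2 or 3 (-0.56 to -0.34). *Rab7*, the Rab of late endosomes, was lower in OV than in periotic tissue on 1 of 3 probes by 0.46 ± 0.13 (*q* = 0.0343). That call was lost without any OV array or periotic replicate 1 or 2 (-0.51 to -0.36), and with neqc. The brightest *Rab7* probe differed by 0.01 (*q* = 0.972) and the remaining one by -0.17 (*q* = 0.348). *Rab28*, a Rab of cilia, was lower in OV on 1 of its 2 probes. It read 9.76, 9.80 and 9.69 in OV, 10.15, 10.13 and 10.36 on the periotic arrays and 9.95, 10.33 and 10.08 in embryo-minus-otic. The differences were -0.46 ± 0.11 (*q* = 0.00812) and -0.37 ± 0.11 (*q* = 0.0330). The second call was lost without any OV array or embryo-minus-otic replicate 2 or 3 (-0.40 to -0.26), and both with median normalization.

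Recycling and plasma membrane delivery Rabs gave calls for *Rab8b* and *Rab35* besides *Rab25* and *Rab15*. *Rab8b*, which carries cargo to the plasma membrane, was lower in OV than in periotic tissue on both probes, by 0.45 ± 0.09 (SE; *q* = 0.00255) and 0.31 ± 0.08 (*q* = 0.0265). It was higher in periotic tissue than in embryo-minus-otic by 0.36 ± 0.09 (*q* = 0.0215) and 0.31 ± 0.08 (*q* = 0.0421). Only the first of these 4 calls held with each array left out. The OV call of the second probe was lost without any OV array or periotic replicate 1 or 3 (-0.33 to -0.28). The periotic calls were lost on the first probe without periotic replicate 1 or 3 or embryo-minus-otic replicate 2 or 3 (0.31 to 0.36), and on the second without any array but embryo-minus-otic replicate 3. *Rab35*, a Rab of fast recycling, read 9.65, 9.83 and 9.72 in OV, 9.95, 9.93 and 10.03 on the periotic arrays and 10.30, 10.26 and 9.97 in embryo-minus-otic, lower in OV than in embryo-minus-otic by 0.45 ± 0.10 (*q* = 0.00703), a call lost with median normalization.

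Early endosome Rabs, among them *Rab4a*, *Rab5a*, *Rab5c*, *Rab14* and *Rab21*, had no call. Of their 12 probes 0 were called by limma in any comparison. At an unadjusted p under 0.05, 1 was lower in OV than in periotic tissue, 1 was higher in OV than in embryo-minus-otic and 1 was higher in periotic tissue than in embryo-minus-otic. Differences ranged from -0.41 to 0.12 against periotic tissue and from -0.17 to 0.21 against embryo-minus-otic.

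The ubiquitous members as a whole, 53 probes for 29 genes, had 0 higher and 4 lower calls in OV against periotic tissue by limma (1 and 7 at an unadjusted p under 0.05). The lower calls were 7.55% of these probes, while over all probes 5.07% were higher and 5.15% lower. Against embryo-minus-otic 2 (3.77%) were higher and 4 (7.55%) lower, beside 5.89% and 5.51% of all probes. Median differences of the ubiquitous members were -0.08 and -0.02, and 44 of the 53 probes were above background on all 9 arrays. The 7 probes of the epithelial members had median differences of 1.90 and 1.86, and none was above background on all 9 arrays, values that follow from how those genes were selected. Other cell types also differed between the groups. Erythroid markers, 12 probes with 11 lower in OV than in both, summed to 17040 to 41960 in OV, 66090 to 77560 in periotic tissue and 89620 to 95350 in embryo-minus-otic. Mesenchyme markers, 16 probes with 13 lower in OV than in embryo-minus-otic, summed to 2283 to 2526, 2561 to 3023 and 4542 to 5532. Of 10 endothelial probes, 4 were lower in OV than in both. Their part in the lower calls of *Rab32*, *Rab34*, *Rab35* and *Ap1m1* was not tested.

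Between the non-otic groups, 9 member probes were higher and 2 lower in periotic tissue than in embryo-minus-otic. Without *Ap1m2*, *Rab25* and *Rab17* the counts were 9 of 112 (8.04%) and 1 (0.893%), *Rab27a*. Over all probes the shares were 2.86% and 2.95%. The largest rises were those of *Rab6b*, *Ap3m2*, *Rab33a*, *Rab39* and *Ap3b1*. With median normalization the split was 8 higher and 0 lower. The number higher fell to 5 without periotic replicate 1 or embryo-minus-otic replicate 1.

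The proteins that act on Rabs and with clathrin were compared as pathway lists. Among Rab exchange factors and GTPase-activating proteins, 6 of 29 probes were higher in OV than in periotic tissue and 5 than in embryo-minus-otic, with 0 lower. These were 20.7% and 17.2% of the probes, beside 5.07% and 5.89% of all probes on the array. *Rin2* and *Rin3*, exchange factors of the Rab5 group, were higher by 1.11 ± 0.10 (SE; *q* = 8.00e-07) and 0.80 ± 0.11 (*q* = 1.21e-04) against periotic tissue and by 0.48 ± 0.10 (*q* = 0.00360) and 0.43 ± 0.11 (*q* = 0.0186) against embryo-minus-otic. The second *Rin2* probe was higher against periotic tissue only (0.71 ± 0.14; *q* = 0.00316). *Tbc1d1*, a GTPase-activating protein for Rabs of glucose transporter vesicles, was higher by 0.70 ± 0.10 (*q* = 8.25e-05) and 0.52 ± 0.10 (*q* = 0.00153). *Tbc1d10a*, which acts on Rab27 and Rab35, was higher on both probes, by 0.71 ± 0.10 in each comparison on the brighter one (*q* = 1.58e-04 and 1.57e-04).

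The clathrin coat and accessory list had 54 probes for 29 genes. Against periotic tissue 2 (3.7%) were higher in OV and 6 (11.1%) lower, beside 5.07% and 5.15% of all probes. Against embryo-minus-otic 5 (9.26%) were higher and 3 (5.56%) lower, beside 5.89% and 5.51%. The genes lower in both were *Dab2*, an endocytic adaptor for lipoprotein receptors, and *Dnajc6*, the neuronal auxilin that uncoats clathrin vesicles. *Dab2* was lower by 0.84 ± 0.11 (SE; *q* = 6.34e-05) and 0.85 ± 0.11 (*q* = 6.06e-05) on its brighter probe, and the second probe was called in both as well. *Dnajc6* was lower in both on 1 probe, by 0.44 ± 0.09 (*q* = 0.00518) and 0.36 ± 0.09 (*q* = 0.0178). Rab effectors had 1 call each way among 36 probes in the OV comparisons, lower against periotic tissue and higher against embryo-minus-otic. Each was 2.78% of the probes, beside 5.15% and 5.89% of all probes.

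**Figure D5:**
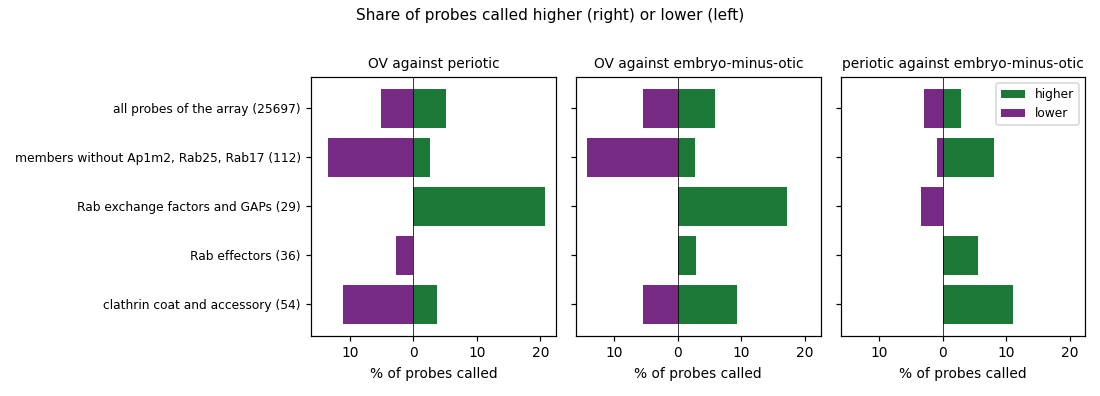
Share of probes with a q under 0.05 in each comparison, higher to the right and lower to the left, for all probes of the array, the members without Ap1m2, Rab25 and Rab17, and 3 pathway lists, with the number of probes in parentheses. In the OV comparisons the members had 2.68% higher calls and 13.4% and 14.3% lower calls, and the exchange factors and GTPase-activating proteins (GAPs) had higher calls alone.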

How the data were processed

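RNA from 9 pools was hybridized to single-colour arrays, and per probe the authors deposited an average signal, an intensity without normalization across arrays, and a detection p-value that ranks it against negative control beads. The log2 of the deposited intensity was quantile normalized (9 arrays) and modelled by group in limma 3.58.1 (R 4.3.3), all 3 groups together, with Benjamini-Hochberg adjustment over all 25697 probes. Probes were not averaged by gene. A probe was above background at a detection p under 0.01. Where a group had no array above background, the fold is a lower bound against the higher of the probe's own value and the lowest detected signal on each array.

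Gene symbols follow the array annotation. In the RefSeq table, 69 of the 72 genes were found by symbol and 3 (*Rab1*, *Rab2* and *Rab6*) by synonym, and upstream sequences were searched on both strands. The members, gene lists and comparisons were chosen with earlier results of these data known. Named were the epithelial members and their relatives, the 5 largest calls each way per comparison, called adaptor, neuron-enriched and secretory members, members called in both OV comparisons, and called pathway genes. Some small calls outside this rule (*Rab7*, *Rab8b*, *Rab12*, *Rab19*, *Rab35*) were named after their values were seen. The alternatives tried were each array left out, median or no normalization, neqc (offset 16), array weights, a replicate block, detected probes alone and separate fits per comparison. The fit was tested on simulated data.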

Additional observations from a re-analysis of the deposited data

How the results depend on the processing

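No tested call of a member changed sign under any alternative run. Of 48 tested calls, 13 held under every alternative, 26 were lost when some array was left out, 27 with median normalization, 31 without normalization and 8 with neqc, and for 19 the log2 difference was over 1.5 times larger with neqc. The cause was not tested. OV against periotic tissue had 5 higher calls without normalization, and 9 lower with median and 8 without normalization (15 as reported). The median member difference of -0.09 was -0.15 with neqc, -0.13 with median, -0.13 without normalization and -0.15 over probes above background. OV against embryo-minus-otic had 5 higher and 4 lower calls with median and 5 and 6 without normalization, with medians of 0.052 and -0.085 (-0.025 as reported). Leaving out an array gave 5 to 8 higher calls, 5 without OV replicate 3 or embryo-minus-otic replicate 1, and 8 to 17 lower, 9 without OV replicate 1, 8 without OV replicate 3 and 10 without embryo-minus-otic replicate 2. Periotic tissue against embryo-minus-otic had 3 higher calls without normalization. Lower calls by limma were 0 with median and 0 without normalization (4 each at an unadjusted p under 0.05) and 1 in a fit of only these groups. Its median of 0.052 was 0.074 with neqc and 0.17 with median normalization. Leaving out an array gave 5 to 9 higher and 0 to 2 lower calls and medians of 0.030 to 0.068. Lower in OV than both groups were 3 probes with median and 4 without normalization, and 4 to 8 with an array left out. Deviations of same-numbered samples correlated at 0.00798 to 0.182, and the own number was best in 8 of 9 pairings, a hint from the data that numbers may mark a shared source. The labels do not say so and not every pairing passed 0.1, so the numbers were not used as pairs. With the replicate number as a block (replicate block), 17 member probes were lower in OV than in periotic tissue, and 1 of the 48 calls, *Ap1s3* against embryo-minus-otic, was lost.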

Other observations

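Genes with Rab-like or adaptor-like names outside the symbol rule, chosen after values were seen, were read in the same fit. *Rabl3*, a Rab-like GTPase, was below both other tissues in OV, by 0.59 ± 0.09 (SE; limma *q* = 2.32e-04) and 0.62 ± 0.09 (*q* = 1.51e-04). *Rabl4* and *Rabl5*, GTPases of intraflagellar transport, and *Rab7l1* had no call. *Rab6ip1*, a Rab6-binding protein, was lower than periotic tissue on 2 of 3 probes, by 0.57 ± 0.10 (*q* = 0.00105) and 0.52 ± 0.10 (*q* = 0.00132), and lower than embryo-minus-otic on the first of these by 0.34 ± 0.10 (*q* = 0.0413). *Ap1gbp1*, which encodes an AP-1 gamma-binding protein, was higher in OV than in embryo-minus-otic on both probes, by 0.61 ± 0.10 (*q* = 6.92e-04) and 0.35 ± 0.09 (*q* = 0.0230), and was higher in periotic tissue than in embryo-minus-otic by 0.65 ± 0.10 (*q* = 7.74e-04) and 0.35 ± 0.09 (*q* = 0.0412). Its OV differences from periotic tissue were -0.04 ± 0.10 (*q* = 0.920) and 0.00 ± 0.09 (*q* = 0.995). No probe for the Rab11 effectors *Rab11fip2* to *Rab11fip5*, which link recycling endosomes to motors, was called in any comparison.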
